A study of Mus musculus with 34 samples.

Results

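The genes described here are 38 that code for proteins of DNA break repair and of damage signaling. They were taken by symbol from the 23951 genes listed in each deposited expression file, and all 38 were present. The study asked what the loss of Hdac1, a histone deacetylase, does in the aged mouse brain and in 5XFAD mice, a line that carries mutant human transgenes of familial Alzheimer's disease driven by the Thy1 promoter. Transcripts were measured in the hippocampus of 20 male mice, in 4 groups. Control mice were Hdac1f/f, that is, homozygous for a conditional Hdac1 allele (n = 4, 13 to 14 months old). Hdac1 cKO mice carried the same alleles with Nestin-Cre, which deletes the gene in neurons and astrocytes but not in microglia (n = 5, 13 to 14 months). 5XFAD mice were Hdac1f/f with the 5XFAD transgenes (n = 6, 13 months), and Hdac1 cKO;5XFAD mice, called compound mice here, carried the conditional alleles, Nestin-Cre and the 5XFAD transgenes (n = 5, 13 months). All groups therefore share the Hdac1f/f background, and none of them is wild type at this locus. Every mouse without 5XFAD is labelled 13 to 14 months and every mouse with it 13 months. Sample numbers also place the mice without and with 5XFAD in separate sets. Across 5XFAD status, the transgenes therefore cannot be told apart from age label or sample set. A second set of libraries came from nuclei that were stained for GFAP, an astrocyte filament protein, and sorted from frozen cortex of 13-month-old Hdac1f/f mice (n = 3) and Hdac1f/f, Nestin-Cre mice (n = 4). The titles of these libraries read WT and KO, and the paper calls the animals control and Hdac1 cKO. Libraries of a group were treated as separate mice, as the labels number them.

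A break in a single DNA strand is found by PARP enzymes, which recruit the scaffold Xrcc1 together with end-processing enzymes, a polymerase and a ligase, and base excision repair passes through the same steps after a damaged base has been cut out. A break through both strands is held by the Mre11a-Rad50-Nbn complex or by the Ku proteins, activates the kinases Atm, Atr and DNA-PKcs, and leads to phosphorylation of the histone variant H2AX in the surrounding chromatin. Such breaks are then joined directly by end joining, the main route in cells that no longer divide, such as neurons, or are copied from the sister chromatid by homologous recombination, which belongs to dividing cells.

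A gene was called here when its fold change was at least 1.5 and its unadjusted p was under 0.05, the thresholds of the study, with limma on log2(FPKM + 1). FPKM is a count of fragments scaled to the length of the transcript and to the size of the library. Across the 8 hippocampal comparisons, 3 of the 38 genes were called at least once: Xrcc4, which holds the end-joining ligase on the DNA, Nhej1, its structural relative in the same complex, and Apex1, the endonuclease that cuts at a lost base. These are 8.82% of the 34 members tested, beside 9.53% of the 13707 genes tested in all 8 comparisons, a share near the background. No member had an adjusted p under 0.05 (limma, Benjamini-Hochberg) in any of the 9 comparisons, whereas 308 other genes did in the comparison of 5XFAD over both backgrounds. A further 10 members had an unadjusted p under 0.05 in at least 1 of the 8 hippocampal comparisons without a call, 21 had none, and the remaining 4 (Chek1, Brca1, Bard1 and Palb2) averaged under 0.5 FPKM in each of them and were not tested. Called or not, 13 of 34 (38.2%) thus had an unadjusted p under 0.05 at least once, beside 34.2% of the 13707 genes.

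Hdac1 itself, the check of the labels, lay at 5.91 to 10.7 FPKM in control and 6.10 to 9.64 FPKM in 5XFAD hippocampi, against 2.36 to 3.03 FPKM in Hdac1 cKO and 1.15 to 2.52 FPKM in compound hippocampi. In the sorted nuclei it overlapped, at 9.91 to 22.3 FPKM in control and 5.80 to 11.5 FPKM in Hdac1 cKO libraries. The depth estimated from the smallest steps of the values was 2250000 to 7020000 fragments per hippocampal library and 6540000 to 9390000 per nuclei library, and was lowest in the compound group (median 3090000, against a control median of 3790000). Choroid plexus RNA stood apart: the summed level of 7 of its markers was 586 to 20351 FPKM in control hippocampi, 59.7 to 1626 FPKM in Hdac1 cKO, 56.4 to 7966 FPKM in 5XFAD and 62.0 to 14007 FPKM in compound hippocampi. The sum of 8 microglial markers was 235 to 310 FPKM in control, 255 to 329 FPKM in Hdac1 cKO, 744 to 1066 FPKM in 5XFAD and 986 to 1970 FPKM in compound hippocampi. The part of these cell types in the results below was not tested except where a value is given. In tissue of mixed cells, fewer cells of a type and less RNA per cell cannot be told apart. The nuclei carried astrocyte RNA as labelled, with 7 astrocyte markers summing to 2156 to 2511 FPKM and 7 neuronal markers to 179 to 252 FPKM. The sum of 6 oligodendrocyte markers was 450 to 1223 FPKM in the same nuclei, and that of 2 precursor markers 10.6 to 30.2 FPKM, so that RNA of other cell types was present as well.

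In the control hippocampus the members spanned a wide range, from Polb at 58.2 ± 7.54 FPKM (mean ± SD, n = 4, as for the other levels of this paragraph and the next) to Brca1 at 0.0867 ± 0.113 FPKM. A mean of 10 FPKM or more was found for 10 members and one from 1 to 10 FPKM for 20, and the other 8 lay under 1 FPKM. Levels of different genes are per length of transcript, but in the hippocampus they come from libraries of 3′ ends, which read the end of each transcript rather than its whole length, so that dividing by length lowers long genes. On estimated fragments, which take the longest annotated transcript of each gene, the order differs. The control median was 463 for Rnf8 and 420 for Dclre1c, against 256 for Polb, and 96.0 for Atm and 89.8 for Prkdc, against 104 for Nbn. Rnf8 has 9 annotated transcripts and Dclre1c 11, against 1 for Polb, so that these estimates depend on that choice of length. Among the sensors and kinases, Rad50 (12.1 ± 0.702 FPKM) and Nbn (10.7 ± 1.32 FPKM) stood well above Mre11a, the nuclease of the same complex, at 0.890 ± 0.721 FPKM. Of the large kinases, which have long transcripts, Atm was at 2.28 ± 0.315 FPKM, Prkdc (DNA-PKcs) at 1.90 ± 0.220 FPKM and Atr at 1.00 ± 0.338 FPKM, and Topbp1, which activates Atr, was at 3.00 ± 0.967 FPKM. The chromatin mediators were mostly high. The ubiquitin ligases Rnf8 and Rnf168 lay at 20 ± 2.39 and 17.1 ± 1.74 FPKM, the histone gene H2afx at 14.9 ± 3.31 FPKM and Trp53bp1, which steers repair to end joining, at 8.05 ± 0.578 FPKM, while Mdc1, the reader of phosphorylated H2AX, was at 0.970 ± 0.259 FPKM. Of the checkpoint kinases, Chek2, the target of Atm, was at 3.47 ± 1.25 FPKM and Chek1, the target of Atr, at 0.193 ± 0.180 FPKM.

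Most recombination genes were low on the FPKM scale. Brca1, its partner Bard1 (0.464 ± 0.134 FPKM), Palb2 (0.201 ± 0.247 FPKM), Rad54l (0.821 ± 0.285 FPKM) and Brca2 (1.02 ± 0.132 FPKM) were all near or under 1 FPKM, and Palb2 and Brca1 were listed at 0 in 6 and 4 of the 20 hippocampal libraries. The recombination factors Xrcc2 and Xrcc3 were at 2.09 ± 0.780 and 2.22 ± 0.208 FPKM. The exception on this scale was the annealing protein Rad52 at 8.08 ± 1.80 FPKM. On estimated fragments Rad52 stood less apart, with a control median of 58.2 against 43.2 for Brca2. End joining was better represented, with the nuclease Dclre1c (Artemis) at 17.4 ± 2.26 FPKM, Xrcc4 at 12.04 ± 1.97 FPKM, the Ku subunits Xrcc6 and Xrcc5 at 8.85 ± 1.94 and 8.04 ± 2.13 FPKM, the ligase Lig4 at 4.11 ± 0.299 FPKM and Nhej1 at 2.05 ± 0.681 FPKM. On the FPKM scale the repair of single-strand breaks and bases held the highest members. The gap-filling polymerase Polb was followed by the break sensors Parp1 (21.3 ± 3.36 FPKM) and Parp2 (19.6 ± 4.28 FPKM) and by Xrcc1 (8.15 ± 0.989 FPKM). Aptx and Tdp1, which clean blocked ends, were at 4.70 ± 0.584 and 2.91 ± 0.678 FPKM, Apex1 at 4.35 ± 0.949 FPKM, the flap nuclease Fen1 at 2.92 ± 1.24 FPKM, and the ligases Lig1 and Lig3 at 3.89 ± 1.61 and 1.82 ± 0.535 FPKM.

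**Figure D1:**
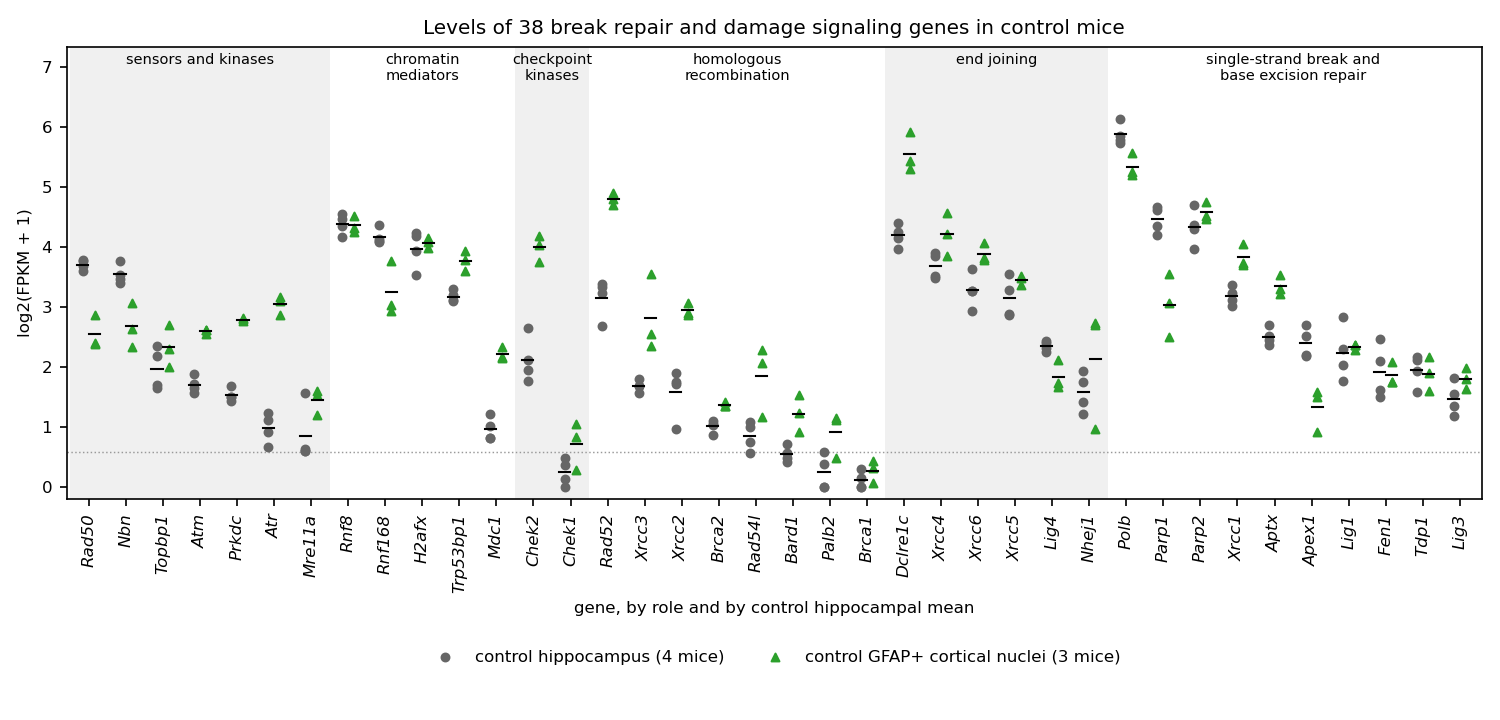
Level of each of the 38 genes, as log2(FPKM + 1), in the 4 control hippocampi (circles) and the 3 control GFAP+ nuclei libraries (triangles), ordered by role, with a black bar at each mean and a dotted line at the filter of 0.5 FPKM. Polb has the highest mean in the hippocampus and Dclre1c in the nuclei, and most recombination genes sit at the bottom.

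Of the members that lead their role groups, Dclre1c and Polb varied least over the 20 hippocampi, with coefficients of variation of 11.7% and 12.7%. Polb measured 54.2, 69.2, 52.4 and 57.2 FPKM in the 4 control mice and 61.9, 67.2, 70.4, 59.5 and 59.0 FPKM in the Hdac1 cKO mice. In the 5XFAD mice Polb ran from 45.6 to 78.1 FPKM (median 58.6), and in the compound mice it was 67.2, 65.2, 61.2, 51.5 and 54.9 FPKM. The 4 groups overlapped, and the lowest Polb value lay above the highest value of every other member in all 20 hippocampi.

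Dclre1c read 18.0, 20.2, 16.9 and 14.7 FPKM in control mice and 15.6, 18.2, 16.0, 21.2 and 17.7 FPKM in Hdac1 cKO mice. It ran from 14.0 to 19.9 FPKM (median 16.5) in 5XFAD mice and was 19.8, 15.1, 18.9, 19.5 and 17.0 FPKM in compound mice. All 4 groups of Dclre1c overlapped, and its p was 0.05 or more in each of the 8 hippocampal comparisons. Chek2 measured 2.40, 3.36, 5.25 and 2.86 FPKM in control mice, 2.49, 1.78, 2.60, 2.89 and 2.93 FPKM in Hdac1 cKO mice, 2.11 to 3.52 FPKM (median 2.85) in 5XFAD mice and 2.83, 1.89, 1.79, 2.41 and 2.86 FPKM in compound mice. One control mouse, at 5.25 FPKM, held the highest Chek2 value, and the other 3 control values overlapped with the remaining groups.

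The GFAP+ nuclei gave another profile, and the libraries differ in chemistry as well as in cell type (full-length cDNA of nuclear RNA against 3′ ends of whole tissue), so that values are set side by side without a test. In 12 of the 38 genes every nuclei library lay above every hippocampal library: Atm, Atr, Prkdc, Mdc1, Trp53bp1, Chek2, Brca2, Bard1, Rad52, Rad54l, Xrcc2 and Dclre1c. Among members averaging 0.5 FPKM or more over the 27 libraries this is 12 of 36 (33.3%), beside 28.4% of 15209 such genes. Dclre1c had the highest mean of the members in control nuclei, with 38.5, 42.4 and 59.5 FPKM in the control libraries and 45.4, 49.5, 53.9 and 44.2 FPKM in the Hdac1 cKO libraries. Chek2 was at 12.5, 15.4 and 17.3 FPKM in control nuclei and 16.4, 18.7, 14.0 and 13.4 FPKM in Hdac1 cKO nuclei, where its highest hippocampal value was 5.25 FPKM. The ranges of Chek2 in the control and Hdac1 cKO nuclei overlapped, as did those of Rad52. Rad52 read 25.1, 26.8 and 29.1 FPKM in control nuclei and 30.1, 26.0, 33.9 and 28.1 FPKM in Hdac1 cKO nuclei, against a highest hippocampal value of 10.9 FPKM. Atr, at 5.76 to 8.47 FPKM in the nuclei and 0.408 to 1.56 FPKM in the hippocampus, had the widest separation by median, 7.34-fold. Only Rnf168 (6.69 to 12.6 FPKM in nuclei, 15.2 to 19.7 FPKM in hippocampus) and Parp1 (4.64 to 10.7 and 14.6 to 26.8 FPKM) lay lower in every nuclei library than in every hippocampal library, 2 of 36 (5.56%) beside 20.5% of the same genes. Polb read 36.0, 37.0 and 46.5 FPKM in control nuclei and 45.7, 30.8, 41.6 and 57.6 FPKM in Hdac1 cKO nuclei, a range that overlapped the hippocampal one.

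Loss of Hdac1 was first compared with controls on the background without 5XFAD. Xrcc4 and Apex1 were called lower and no member was called higher. The 2 called members make 5.88% of the 34 tested, beside 3.36% of the 14265 genes tested in this comparison. By unadjusted p alone it was 4 of 34 (11.8%), beside a background of 11.7%, a share near the background when both directions are counted. All 4 were lower (11.8%, beside 6.84% of all genes) and none was higher, beside 4.91%. The median log2 difference over the 34 members was -0.08, beside -0.00068 over all genes tested, and 21 of the 34 differences were below 0.

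Xrcc4 (chr13:89913632-90229213 on the minus strand of mm9, a gene that overlaps Tmem167 and Gm4117 on the opposite strand) measured 10.3, 13.4, 14.0 and 10.4 FPKM in control mice and 11.8, 5.69, 9.17, 5.50 and 7.37 FPKM in Hdac1 cKO mice. Of the 5 Hdac1 cKO values of Xrcc4, 4 lay under the lowest control and the other within the control range. Its log2 difference was -0.59 (SE 0.20, 95% interval -1.01 to -0.16), with an adjusted p of 0.265 by limma and an exact permutation p of 0.0556 (2-sided). Apex1 (chr14:51544643-51546814 on the plus strand of mm9, overlapping Tmem55b on the opposite strand) measured 3.61, 3.55, 5.52 and 4.73 FPKM in control mice and 1.85, 3.11, 1.09, 4.17 and 3.19 FPKM in Hdac1 cKO mice. Again 4 of the 5 Hdac1 cKO values of Apex1 were under the lowest control and 1 was within its range. The Apex1 difference was -0.59 (SE 0.25, interval -1.13 to -0.06), with an adjusted p of 0.366 by limma and an exact permutation p of 0.0873. An Apex1 value rests on few fragments, estimated at 13.4 to 28.8 per control library and 7.16 to 28.8 per Hdac1 cKO library. All 7 choroid plexus markers and all 4 ependymal markers were called lower in the same comparison (the ependymal sums were 98.1 to 196 FPKM in control and 46.2 to 76.0 FPKM in Hdac1 cKO hippocampi), and their part in the Xrcc4 and Apex1 differences was not tested. Both calls fell under the 1.5-fold threshold with quantile normalization or median scaling, that of Xrcc4 also with the replicate block, and that of Apex1 was lost with all 4 hippocampal groups in one fit. Xrcc4 (log2 differences of -0.73 to -0.48 with 1 mouse left out) lost the call without control 2, control 3 or Hdac1 cKO 2, 4 or 5, and Apex1 (-0.73 to -0.41) without control 3, control 4 or Hdac1 cKO 1 or 3.

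Rnf8 (chr17:29751735-29840304, plus strand, mm9), the ligase that places the first ubiquitin marks at a break, measured 22.5, 19.5, 21.1 and 16.9 FPKM in control mice and 17.5, 13.1, 12.6, 15.4 and 17.8 FPKM in Hdac1 cKO mice. Of the 5 Hdac1 cKO values 3 were under the lowest control value. The log2 difference of Rnf8 was -0.37 (SE 0.13, limma adjusted p = 0.272), under the 1.5-fold threshold. The annotated Rnf8 locus overlaps Ftsjd2 on the same strand and 1110021J02Rik on the other, and how fragments were divided among them is not given in the sources used here. Parp2, at 25.2, 14.7, 18.9 and 19.8 FPKM in control mice and 17.5, 15.2, 14.2, 16.6 and 13.7 FPKM in Hdac1 cKO mice, differed by -0.31 with an adjusted p of 0.412 by limma. For 21 of the 34 members the 95% interval of this comparison stayed within 1.5-fold either way, and for 32 within 2-fold.

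**Figure D2:**
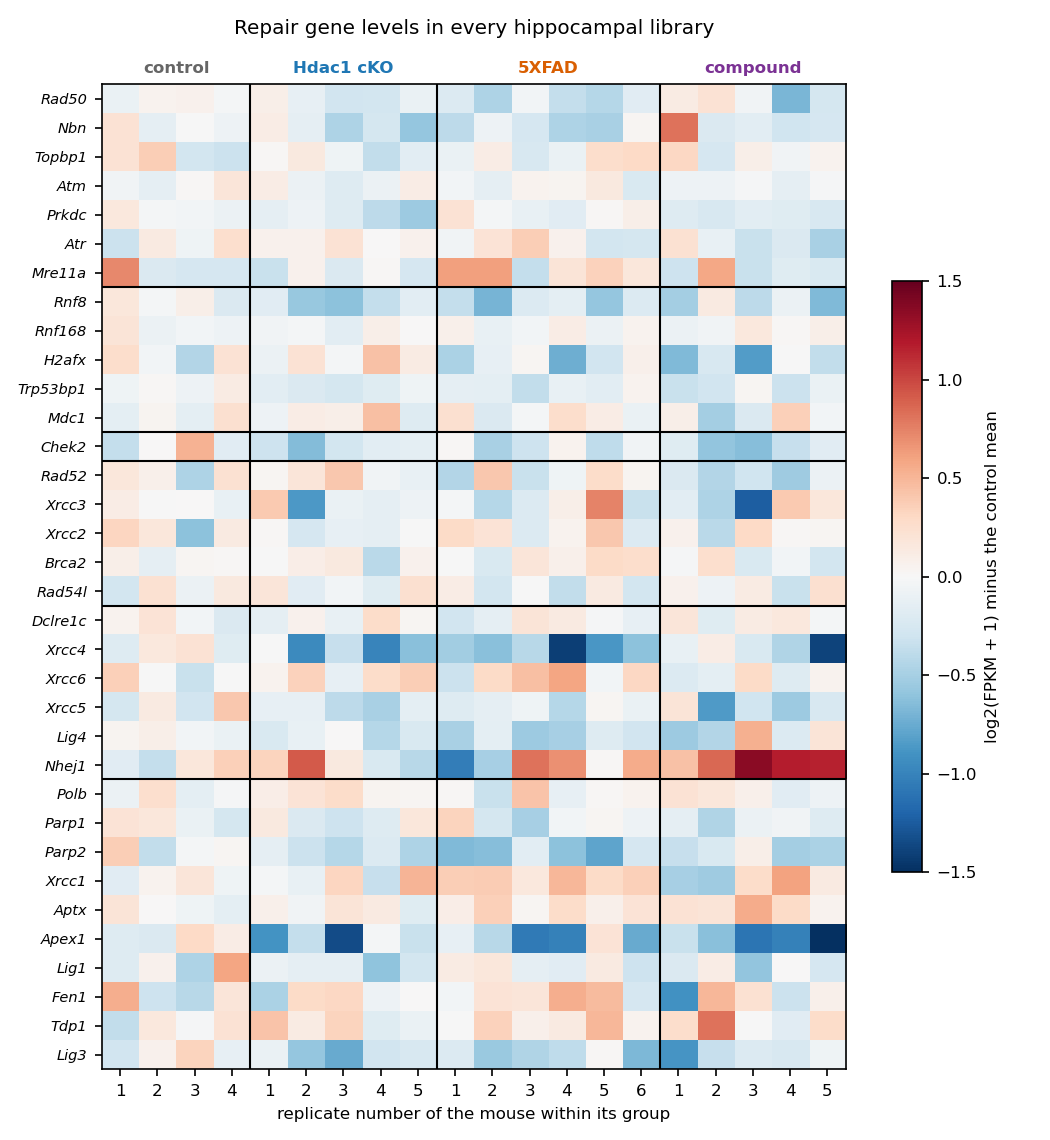
Heat map of the 34 tested genes (by role, top to bottom) in the 20 hippocampal mice (columns, by group), coloured by log2(FPKM + 1) minus the mean of the 4 control mice. Nhej1 is high in all 5 compound mice, Xrcc4 is low in all 6 5XFAD mice, and most other genes vary as much within a group as between groups.

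In 5XFAD mice on the Hdac1-expressing background, Xrcc4 was the called member, and it was lower. Age label and sample set change with 5XFAD status in this comparison. One of 34 is 2.94%, beside 2.95% of the 14402 genes tested. By unadjusted p alone 7 of 34 members (20.6%) passed, beside 10.7% of all genes, of which 6 (17.6%, beside 5.46% of all genes) were lower (Xrcc4, Parp2, Lig4, Rnf8, Rad50 and Apex1) and Xrcc1 was higher. Microglial markers, 7 of 8 of which were called higher in the same comparison, moved with this result. Of 7 astrocyte markers 1 was called higher (astrocyte sums of 375 to 438 FPKM in control and 453 to 515 FPKM in 5XFAD mice). Of 7 neuronal markers, Thy1 among them, 1 was called higher. By unadjusted p alone (limma), 2 of the 7 neuronal markers were higher and 2 lower. Of 4 ependymal markers 2 were called lower (ependymal sums of 67.3 to 110 FPKM in 5XFAD mice). The part of these markers in the result was not tested.

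Xrcc4 ran from 3.86 to 8.68 FPKM in the 6 5XFAD mice (median 7.38), wholly under the 4 control values of 10.3 to 14.0 FPKM. Its log2 difference was -0.75 (SE 0.18, 95% interval -1.14 to -0.35), with an adjusted p of 0.111 by limma and an exact permutation p of 0.00476, the smallest that 4 against 6 mice allow. The call held with each of the 10 mice left out (-0.81 to -0.61). Lig4 (chr8:9970020-9977686, mm9), the ligase that Xrcc4 stabilizes, measured 4.27, 4.44, 3.97 and 3.77 FPKM in control mice and 2.50 to 3.61 FPKM (median 2.90) in 5XFAD mice. These groups of Lig4 did not overlap either. Groups were thus separate for 2 of 34 members, and the share over all genes was not computed. The Lig4 difference of -0.36 (SE 0.13) was under the 1.5-fold threshold, with an adjusted p of 0.352 by limma and an exact permutation p of 0.00952. Lig4 was at 3.37, 3.74, 4.11, 2.80 and 3.36 FPKM in Hdac1 cKO mice and at 2.49, 2.75, 6.40, 3.43 and 4.82 FPKM in compound mice, overlapping the controls in both.

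Of the remaining 5, Parp2 ran from 10.8 to 17.2 FPKM (median 12.1) in 5XFAD mice, a log2 difference from control of -0.52 (SE 0.16, limma adjusted p = 0.234). Xrcc1, the scaffold that Parp activity recruits, measured 7.07, 8.46, 9.37 and 7.71 FPKM in control mice and 9.19 to 11.9 FPKM (median 10.7) in 5XFAD mice. It was the one member of the 7 with a positive difference, 0.34 (SE 0.11, limma adjusted p = 0.283). Rad50 (chr11:53463021-53520821, mm9) read 11.2, 12.6, 12.7 and 11.8 FPKM in control mice, 12.9, 11.0, 9.76, 9.76 and 11.2 FPKM in Hdac1 cKO mice, 8.48 to 11.7 FPKM (median 9.77) in 5XFAD mice and 13.2, 14.1, 11.6, 7.14 and 9.91 FPKM in compound mice. The 5XFAD values of Rad50 were the lower ones against control, by -0.28 (limma adjusted p = 0.404), with 1 of the 6 inside the control range. Rnf8, at 11.9 to 17.8 FPKM (median 16.2) in 5XFAD mice, differed by -0.36 (limma adjusted p = 0.341), and in compound mice it was at 13.7, 21.9, 14.9, 18.6 and 12.2 FPKM, overlapping the controls. Apex1 ran from 1.55 to 5.10 FPKM (median 2.56) and differed by -0.53 (limma adjusted p = 0.465), with 5XFAD values on both sides of the lowest control.

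In compound mice against controls, Nhej1 was called higher and Apex1 lower. These 2 of 34 members (5.88%) stand beside 4.24% of the 14348 genes tested, and the 3 of 34 with an unadjusted p under 0.05 (8.82%) beside 10.5%. The 2 groups of values were separate for both called genes and for Prkdc, 3 of the 34 members. The share of all genes with separate groups was not computed. Nhej1 (chr1:75013713-75093213 on the minus strand of mm9), whose product bridges DNA ends with the Xrcc4-Lig4 complex, measured 1.67, 1.33, 2.37 and 2.84 FPKM in control mice and 3.06, 4.44, 6.65, 5.78 and 5.65 FPKM in compound mice. In Hdac1 cKO mice Nhej1 was at 2.77, 4.68, 2.33, 1.56 and 1.24 FPKM, and in 5XFAD mice it ran from 0.463 to 4.26 FPKM (median 2.71). Every compound mouse thus lay above every control mouse, whereas each of the other groups overlapped both. The log2 difference of Nhej1 from control was 1.00 (SE 0.22, 95% interval 0.52 to 1.47), with an adjusted p of 0.0732 by limma and an exact permutation p of 0.0159. Nhej1 rests on few fragments too, an estimated 5.26 to 13.2 per control library and 9.22 to 40.6 per compound library. In the same comparison 7 of 8 microglial, 2 of 7 astrocyte and 1 of 7 neuronal markers were called higher. Called lower were 4 of 7 choroid plexus, 1 of 4 ependymal and 1 of 4 endothelial markers. Their part in the Nhej1 and Apex1 differences was not tested.

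Nhej1 was also the one member called when compound mice were compared with either parent group. Against 5XFAD mice its log2 difference was 0.91 (SE 0.31, limma adjusted p = 0.718), where 1.28% of 14326 genes were called and 6.61% had an unadjusted p under 0.05, beside 1 of 34 members (2.94%) by each rule. Against Hdac1 cKO mice it was 0.84 (SE 0.25, limma adjusted p = 0.154), where 3.55% of 14195 genes were called, beside 1 of 34 members. These 3 comparisons share the compound mice and are not independent. Microglial markers were called higher against both parent groups as well, 2 of 8 against 5XFAD and 7 of 8 against Hdac1 cKO mice. Astrocyte markers were too, 1 of 7 against 5XFAD and 2 of 7 against Hdac1 cKO mice. Of 7 neuronal markers 1 was called higher against Hdac1 cKO mice. By unadjusted p alone (limma), endothelial markers were lower, 3 of 4 against 5XFAD and 1 of 4 against Hdac1 cKO mice. The part of these markers was not tested. The Nhej1 call held in each comparison with any 1 mouse left out. Without compound 1 the adjusted p of the first was 0.0339 by limma, and without Hdac1 cKO 2 that of the last was 0.0394.

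Apex1 in compound mice measured 3.21, 2.42, 1.47, 1.61 and 0.513 FPKM, all below the lowest control value of 3.55 FPKM. Its log2 difference from control was -0.98 (SE 0.27, 95% interval -1.56 to -0.39), with an adjusted p of 0.180 by limma and an exact permutation p of 0.0159. Apex1 had the same sign against control in Hdac1 cKO, 5XFAD and compound mice, comparisons that share the 4 control mice. The compound values of Apex1 rest on an estimated 3.09 to 13.3 fragments per library. Xrcc4, called lower in each single-mutant group, measured 11.0, 13.0, 9.99, 8.46 and 3.93 FPKM in compound mice. These Xrcc4 values overlapped the controls, with a difference of -0.41 whose interval of -0.98 to 0.16 includes both 0 and a 1.5-fold decrease.

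H2afx, whose phosphorylated protein marks double-strand breaks, had its lowest mean in compound mice. It measured 17.8, 14.3, 10.5 and 17.2 FPKM in control mice, 13.8, 17.2, 14.4, 20.2 and 16.1 FPKM in Hdac1 cKO mice, 8.46 to 15.6 FPKM (median 12.6) in 5XFAD mice and 8.91, 12.3, 7.75, 14.6 and 11.1 FPKM in compound mice. Its transcript level says nothing of the phosphorylated form. Against Hdac1 cKO mice the compound mice differed by -0.56 (SE 0.16, limma adjusted p = 0.144) and against control mice by -0.42 (limma adjusted p = 0.475), neither of which reached 1.5-fold. In the comparison with Hdac1 cKO mice 3 of 34 members (8.82%) had an unadjusted p under 0.05, beside 10.3% of all genes: Nhej1, H2afx and Rad52. Rad52 (chr6:119852716-119872846, mm9) read 9.05, 8.38, 5.46 and 9.44 FPKM in control mice, 8.09, 9.14, 10.9, 7.63 and 7.25 FPKM in Hdac1 cKO mice, 5.59 to 10.8 FPKM (median 7.86) in 5XFAD mice and 6.68, 5.58, 6.28, 5.16 and 7.37 FPKM in compound mice. The Rad52 values of the compound mice lay at the low end of the other groups, with a difference from Hdac1 cKO of -0.41 (SE 0.13, limma adjusted p = 0.231).

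**Figure D3:**
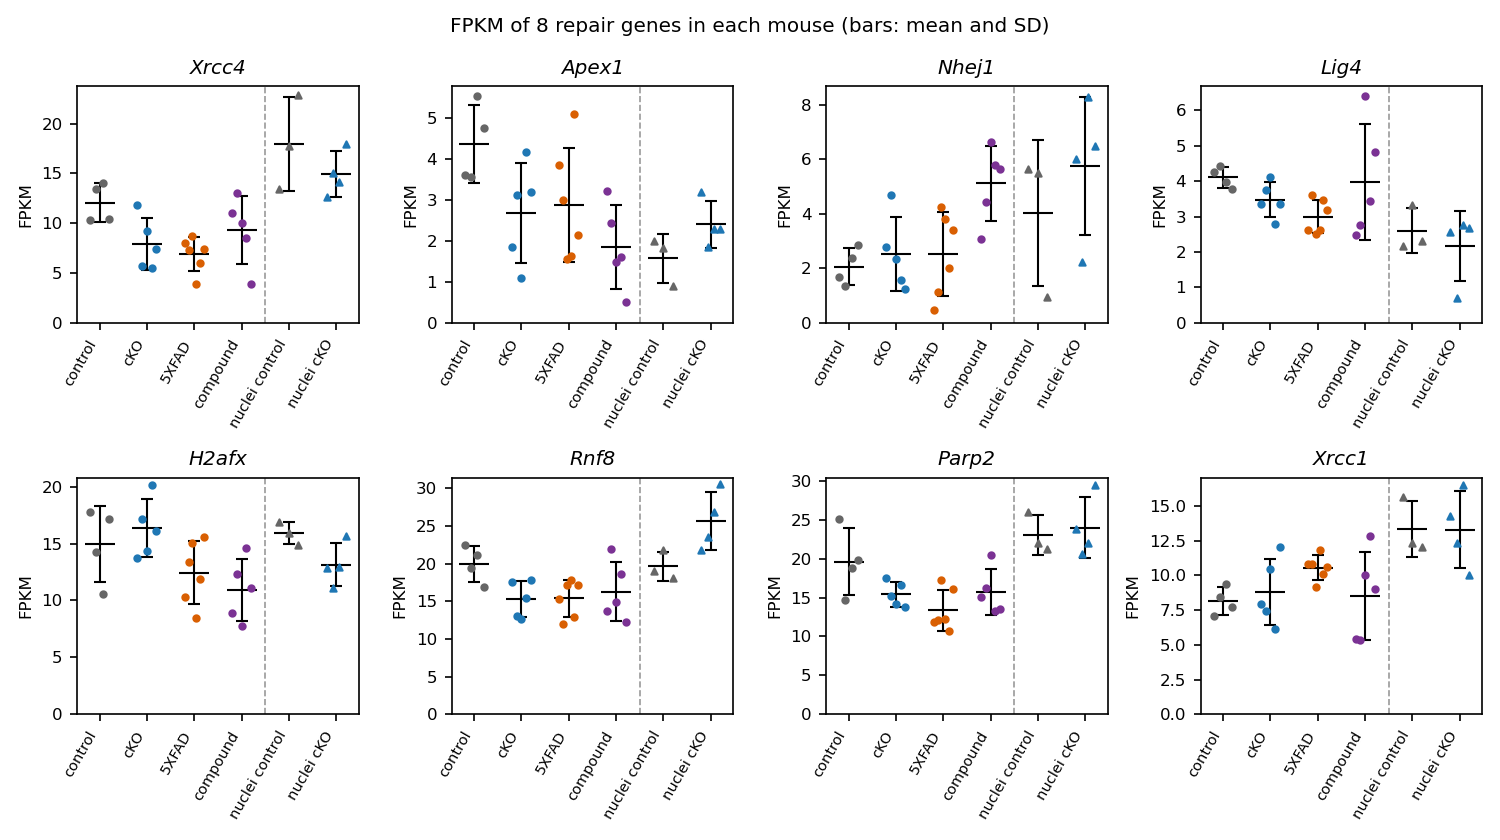
FPKM of Xrcc4, Apex1, Nhej1, Lig4, H2afx, Rnf8, Parp2 and Xrcc1 in each mouse (points) of the 4 hippocampal groups and of the 2 groups of GFAP+ nuclei, with bars at the mean ± SD. The 5 compound mice lie above the 4 controls for Nhej1 and below them for Apex1, and the 6 5XFAD mice lie below the controls for Xrcc4 and Lig4.

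The promoters of the 3 called genes are shown because these are the members called in a hippocampal comparison. Each sequence is the 250 bases before the annotated start, 5′ to 3′ on the strand of the gene, from RefSeq on GRCm38.p6. Capitals mark the GC box GGGCGG, read on either strand (CCGCCC on the other), the core of the sites to which Sp factors bind. Nhej1 lies at chr1:75125227-75125476 (minus strand), Xrcc4 at chr13:90089609-90089858 (minus strand) and Apex1 at chr14:50924699-50924948 (plus strand).
Nhej1: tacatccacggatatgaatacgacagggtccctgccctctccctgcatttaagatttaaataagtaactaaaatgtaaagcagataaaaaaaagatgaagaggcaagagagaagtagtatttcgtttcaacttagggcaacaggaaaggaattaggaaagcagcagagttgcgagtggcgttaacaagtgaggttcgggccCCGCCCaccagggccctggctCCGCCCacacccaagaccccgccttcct
Xrcc4: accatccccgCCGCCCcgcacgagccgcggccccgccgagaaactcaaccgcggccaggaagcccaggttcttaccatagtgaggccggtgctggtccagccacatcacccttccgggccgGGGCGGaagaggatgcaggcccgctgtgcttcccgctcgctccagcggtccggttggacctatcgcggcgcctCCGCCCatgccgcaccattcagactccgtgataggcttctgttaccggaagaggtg
Apex1: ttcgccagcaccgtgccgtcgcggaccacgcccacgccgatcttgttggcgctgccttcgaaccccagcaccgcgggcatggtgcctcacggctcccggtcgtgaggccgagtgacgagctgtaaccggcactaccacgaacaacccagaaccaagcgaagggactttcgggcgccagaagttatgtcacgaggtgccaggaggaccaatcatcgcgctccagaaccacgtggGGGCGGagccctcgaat
The Nhej1 promoter holds 2 matches, the Xrcc4 promoter 3 and the Apex1 promoter 1. Of the 32 members with a promoter in the table, 23 (71.9%) held at least 1 match, beside 62.3% of 10575 genes tested in the hippocampus. By single promoters it was 24 of 38 (63.2%), beside 32.7% of all 32851, a background not limited to genes tested in the hippocampus. A match is a description of these letters and not a bound site. The Nhej1 promoter has the lowest GC content of the 3, 48.4%, against 68.0% for Xrcc4 and 64.8% for Apex1.

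All 20 hippocampi were also fitted together, so that loss of Hdac1 is averaged over mice without and with 5XFAD. No member was called (0 of 34, beside 1.16% of 14389 genes), and 4 of 34 (11.8%) had an unadjusted p under 0.05, beside 9.07% of all genes. These were Apex1 (log2 difference -0.52, SE 0.20, limma adjusted p = 0.400), Prkdc (-0.23, SE 0.085, limma adjusted p = 0.392), Chek2 (-0.25, limma adjusted p = 0.541) and Nhej1 (0.57, SE 0.23, limma adjusted p = 0.444). Prkdc, the catalytic kinase of end joining, measured 2.21, 1.84, 1.82 and 1.71 FPKM in control mice and 1.64, 1.73, 1.52, 1.20 and 0.983 FPKM in Hdac1 cKO mice. With 5XFAD it ran from 1.57 to 2.35 FPKM (median 1.88) in mice with Hdac1 and was 1.52, 1.45, 1.60, 1.55 and 1.44 FPKM in compound mice. The Prkdc values of the compound mice were all below the control values, by less than 1.5-fold. For 30 of the 34 members the 95% interval stayed within 1.5-fold either way, the exceptions being Mre11a, Xrcc3, Nhej1 and Apex1. Choroid plexus markers moved with Hdac1 loss here too, 7 of 7 being called lower. Of the other markers, 1 of 7 astrocyte markers was called higher and 1 of 4 thalamic markers lower. By unadjusted p alone (limma), 3 of 8 microglial markers were higher, and 2 of 4 endothelial and 1 of 4 ependymal markers lower. The part of these markers in the 4 differences was not tested.

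The comparison by 5XFAD status, averaged over both Hdac1 genotypes, likewise gave no call among the members (0 of 34, beside 2.24% of 14389 genes). Age label and sample set change with 5XFAD status here and cannot be told apart from it. By unadjusted p alone 4 of 34 (11.8%) passed, beside 11.4% of all genes. H2afx differed by -0.41 (SE 0.13, limma adjusted p = 0.129), Parp2 by -0.25 (limma adjusted p = 0.419), Apex1 by -0.45 (limma adjusted p = 0.365) and Aptx, which removes AMP from failed ligations, by 0.20 (SE 0.081, limma adjusted p = 0.308). The interval lay within 1.5-fold for 30 of 34 members, all but H2afx, Xrcc4, Nhej1 and Apex1, and within 2-fold for all 34. Without control 3 the adjusted p of H2afx was 0.0341 by limma. In the same fit 7 of 8 microglial markers (median log2 difference 1.44), 2 of 7 astrocyte and 1 of 7 neuronal markers were called higher. By unadjusted p alone (limma), 3 of 7 neuronal markers were lower and 2 of 6 oligodendrocyte markers higher. The part of all these markers in these 4 differences was not tested.

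Whether the effect of losing Hdac1 differed between the backgrounds was tested by the interaction. Xrcc4 was the called member, 1 of 34 beside 4.07% of 14389 genes, and Xrcc4 and Parp2 (2 of 34, 5.88%) had an unadjusted p under 0.05, beside 8.97%. The interaction of Xrcc4 was 0.92 on the log2 scale (SE 0.35, 95% interval 0.19 to 1.65, limma adjusted p = 0.461). Its mean was 12.04 FPKM in control, 7.91 FPKM in Hdac1 cKO, 6.89 FPKM in 5XFAD and 9.28 FPKM in compound mice, so that the mean of the compound mice lay above that of either single mutant. Parp2 had the same pattern, with means of 19.6, 15.4, 13.4 and 15.7 FPKM in that order and an interaction of 0.53 (SE 0.21, limma adjusted p = 0.467). The Xrcc4 call held with any of the 20 mice left out (0.79 to 1.16). Ependymal markers moved with this result, 3 of 4 being called higher in the interaction, and the 7 choroid plexus markers had positive but uncalled interactions (median 1.73). Their part in it was not tested.

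**Figure D4:**
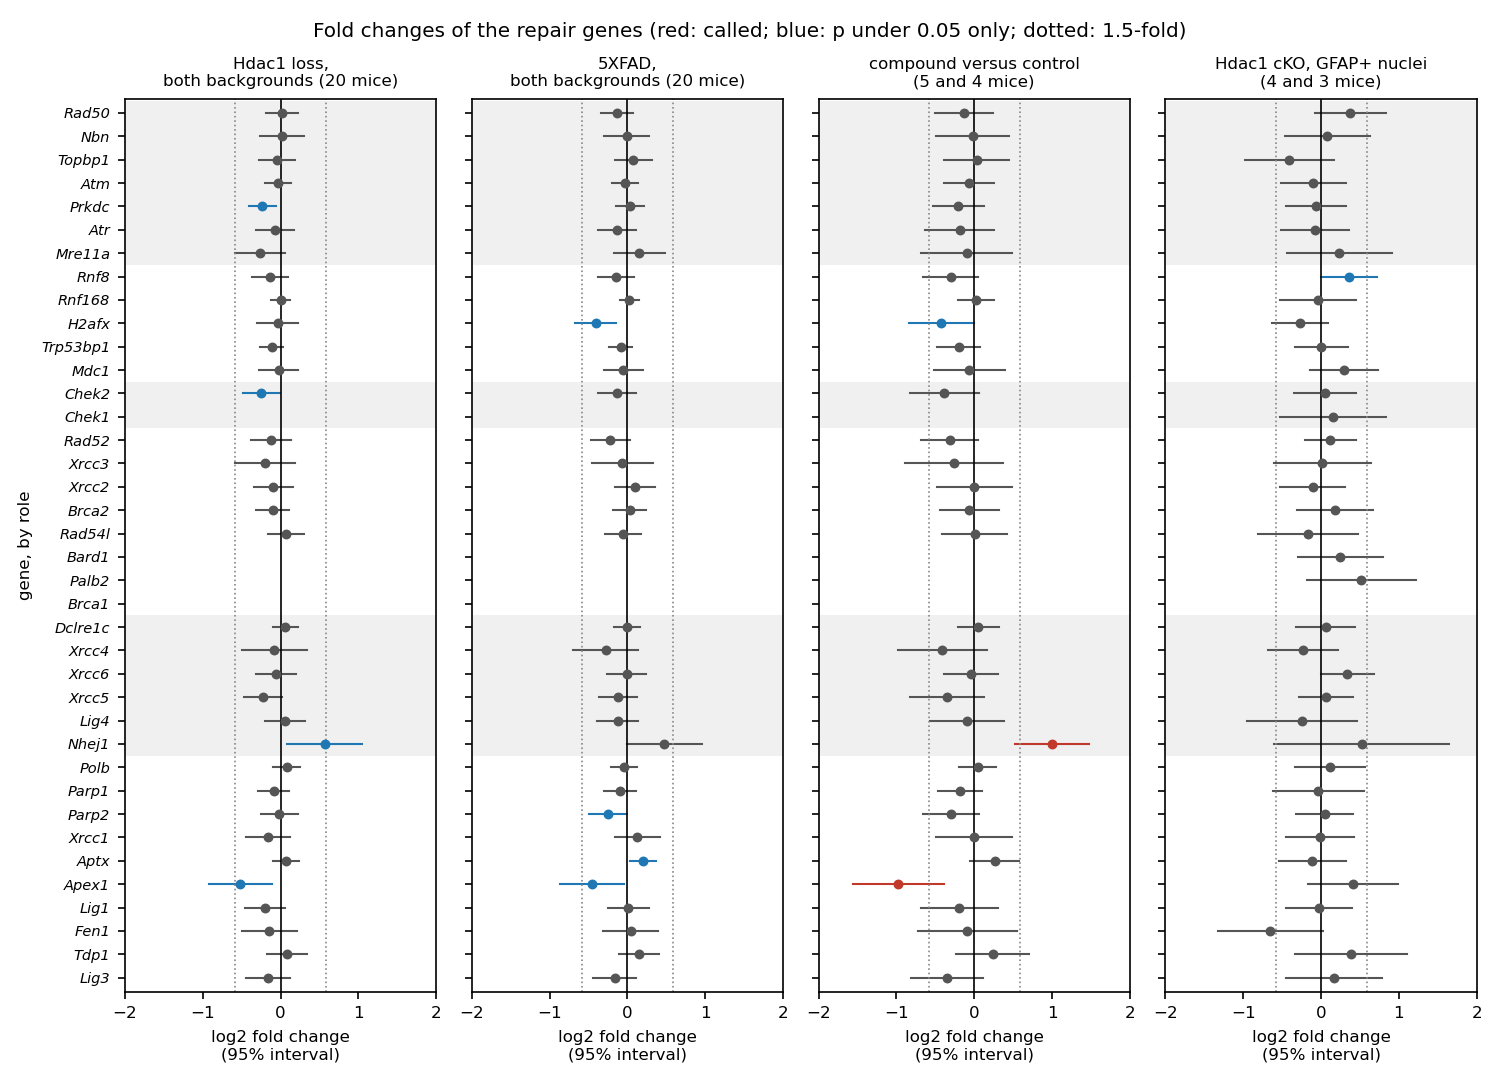
Log2 difference of each tested gene, with its 95% interval, for Hdac1 loss over both backgrounds, 5XFAD over both backgrounds, compound mice against control, and Hdac1 cKO against control in GFAP+ nuclei. Red marks a call (1.5-fold or more with an unadjusted p under 0.05), blue an unadjusted p under 0.05 alone, and dotted lines stand at 1.5-fold. The 2 red genes are Nhej1 and Apex1 in compound mice.

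In GFAP+ cortical nuclei, 37 members were tested (all but Brca1) and none was called, beside 2.58% of 15070 genes. With limma, 1 of 37 members (2.70%) had an unadjusted p under 0.05, beside 4.70% of all genes. It was Rnf8, at 19.1, 21.8 and 18.1 FPKM in control nuclei and 21.9, 23.5, 26.8 and 30.5 FPKM in Hdac1 cKO nuclei. The groups of Rnf8 did not overlap, and its log2 difference was 0.36 (SE 0.16, limma adjusted p = 0.984, exact permutation p = 0.0571). Markers of other cells moved between these groups too: 4 endothelial markers summed to 34.5 to 56.7 FPKM in control and 23.1 to 33.0 FPKM in Hdac1 cKO nuclei (1 of 4 called lower), and 2 of 6 choroid plexus markers tested were called higher. Their part in the nuclei results was not tested. Xrcc6, the smaller Ku subunit, measured 13.1, 15.7 and 12.8 FPKM in control and 19.5, 18.8, 16.3 and 16.6 FPKM in Hdac1 cKO nuclei, also without overlap. Its log2 difference was 0.34, with an unadjusted p of 0.05 or more by limma. The exact permutation p of Xrcc6 was 0.0286, the smallest that 3 against 4 libraries allow. Groups did not overlap for 2 of the 37 members, and the share over all genes was not computed. The 95% interval stayed within 1.5-fold for 15 of 37 members. The 3 called genes of the hippocampus overlapped between the nuclei groups. Xrcc4 was at 13.4, 17.7 and 22.8 FPKM in control and 12.6, 15.0, 14.1 and 18.0 FPKM in Hdac1 cKO nuclei. Apex1 was at 1.99, 1.83 and 0.889 FPKM in control and 3.19, 1.84, 2.28 and 2.28 FPKM in Hdac1 cKO nuclei. Nhej1 was at 5.64, 5.51 and 0.954 FPKM in control and 6.00, 2.24, 8.30 and 6.49 FPKM in Hdac1 cKO nuclei, with both groups spread over more than 2-fold.

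The difference of the Hdac1 cKO effect between nuclei and hippocampus was tested by permuting genotypes within each tissue, a test added after the values were seen. Of the 34 members tested in both, 3 (8.82%) had an exact permutation p under 0.05, beside 6.74% of the 13488 genes. Rnf8 differed by 0.74 on the log2 scale (-0.37 in hippocampus and 0.36 in nuclei, exact permutation p = 0.00227), Apex1 by 1.01 (-0.59 and 0.42, p = 0.00907 by the same exact permutation) and Rad50 by 0.52 (-0.14 and 0.38, p = 0.0193 by the same exact permutation). None passed adjustment over all genes, with a smallest adjusted permutation p of 0.518 among the members. Tissue, compartment and library chemistry change together in this contrast and cannot be told apart.

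The rest of the pathway was read from 8 lists of 114 genes (other recombination and single-strand break genes, Fanconi, mismatch, nucleotide excision and translesion genes, checkpoint adaptors and p53 targets), 109 of which were in the files. None had an adjusted p under 0.05 by limma, and at most 5 were called in a comparison. In Hdac1 cKO mice 2 of 92 tested were called (2.17%, beside 3.36% of all genes), both higher, among them the phosphatase Cdc25b (log2 difference 0.60). In 5XFAD mice 0 of 94 were called by limma, beside 2.95% of all genes, and 8 of 94 had an unadjusted p under 0.05, beside 10.7%. In compound mice 1 of 91 was called against control (1.10%, beside 4.24%), Gadd45a, a p53 target, at 0.64, and 2 of 92 (2.17%, beside the 1.28% of all genes given above) against 5XFAD mice, both lower: the uracil glycosylase Ung (-0.69), which makes the sites that Apex1 cuts, and Rbbp8 (-0.61), which starts end resection. Against Hdac1 cKO mice 2 of 90 were called (2.22%, beside 3.55%), Parp3 (0.74) and Gadd45a (0.65), both higher. Over both backgrounds, Perp (-0.85) was the 1 gene of 92 called for Hdac1 loss (1.09%, beside 1.16%) and Gadd45a (0.62, limma adjusted p = 0.103) the 1 of 92 called for 5XFAD (1.09%, beside 2.24%). The interaction called 5 of 92 (5.43%, beside 4.07% of all genes), of which Rad18 (0.80), Parp3 (0.78) and Bbc3 (0.63) were positive and the other 2, among them Pms1 (-0.71), negative. In GFAP+ nuclei 2 of 95 were called (2.11%, beside 2.58%), both lower. Of the 20 p53 targets tested there, 11 had a positive difference (median 0.05). The called genes belong to this list: Cdkn1a, the cell cycle inhibitor, had means of 7.63 FPKM in control and 4.16 FPKM in Hdac1 cKO nuclei (-0.75) and the death receptor Fas differed by -0.70.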

How the data were processed

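RNA of 20 hippocampi and of 7 preparations of GFAP+ cortical nuclei was sequenced. The authors collapsed duplicate reads, aligned them with TopHat to mm9 and computed FPKM with Cufflinks 2.0.0, and the deposited FPKM values, 1 file per library, were used here as they stand. Of the series' other samples, 1 control nuclei library (replicate 2), for which no expression values were at hand, and the ChIP-seq set of 6 were not used. Tests were run, for genes averaging 0.5 FPKM or more in the mice compared, on log2(FPKM + 1) with limma 3.58.1 (trend and robust) in R 4.3.3, with Benjamini-Hochberg adjustment over all genes tested, after the script was tested on simulated data. A fold change on this scale understates the change of low genes. The 2 groups of a comparison entered each fit, and all 20 hippocampi the fits over both backgrounds. Exact permutation tests over mice were 2-sided. Approximate depths were taken from the smallest steps of the FPKM values. Fragments of a gene were estimated from its FPKM, that depth and its longest annotated transcript. Neither carries an error estimate. Python 3.11.15 with numpy 2.4.6, pandas 2.3.3 and matplotlib 3.10.9 did the rest.

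The 38 genes and all lists were chosen with earlier results of these data known. Every gene of the 38 was named with its control level. Values by mouse (the range and median for the 6 5XFAD mice) were given for genes that were called, or that did not overlap with an unadjusted p under 0.05, and for the highest gene of each role. Some further genes were given per mouse after their values were seen. Alternatives were a pseudocount of 0.1, a filter of 1 FPKM or none, quantile normalization, median scaling, limma without trend or robust fitting, all 4 hippocampal groups in one fit, the ratio of mean FPKM, a replicate block and leaving out each mouse. One called gene of the other lists is not reported here.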

Additional observations from a re-analysis of the deposited data

Results flagged for a closer look

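In 8 of the 190 sets of values of 1 member in 1 group (5 groups of 4 to 6 libraries), a single library lay apart from the rest of its group by Dixon's criterion, which chance alone meets in about 1 of 20. In the hippocampus these were Atr in Hdac1 cKO 3 (1.31 FPKM, the others 0.981 to 1.07), Brca2 in Hdac1 cKO 4 (0.520 FPKM, the others 1.01 to 1.23), Mre11a and Rnf168 in control 1 (1.97 FPKM against 0.518 to 0.550, and 19.7 FPKM against 16.1 to 16.5), Mre11a in compound 2 (1.69 FPKM, the others 0.436 to 0.587) and Nbn in compound 1 (19.6 FPKM, the others 8.50 to 9.43). In GFAP+ Hdac1 cKO nuclei they were Rad50 in library 4 (8.14 FPKM, the others 6.04 to 6.25) and Lig4 in library 2 (0.686 FPKM, the others 2.55 to 2.77). The cause of these values was not tested.

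For a difference of effect between backgrounds, 2 of 34 members had an unadjusted p under 0.05 (limma), beside 8.97% of all genes. For a difference between tissues, 3 of 34 (8.82%) had an exact permutation p under 0.05, beside 6.74% of the 13488 genes. The effect of Hdac1 loss with 5XFAD minus that without it was 0.92 on the log2 scale for Xrcc4 and 0.53 for Parp2 (limma adjusted p = 0.461 and 0.467). The effect of Hdac1 loss in nuclei minus that in hippocampus was 0.74 for Rnf8, 1.01 for Apex1 and 0.52 for Rad50, by an exact permutation within tissues (adjusted p = 0.518, 0.618 and 0.660).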

How the results depend on the processing

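No direction reversed. Of 83 counts of called members recomputed under another setting, 64 stayed within 1.5 times the count given, as did 84 of 87 single results in direction and on the same side of the p threshold . With a mouse left out, 95 of 104 such results and 81 of 116 counts did. Apex1 in Hdac1 cKO missed that threshold when all hippocampal groups shared one fit and Rnf8 in nuclei without trend or robust fitting and with the replicate block. For Hdac1 cKO against control the 2 calls became 0 with quantile normalization and with median scaling, 1 with all 4 groups in one fit and 4 at any fold change. For 5XFAD against control the 1 call became 2 with a pseudocount of 0.1 and with the ratio of mean FPKM, and 7 at any fold change. For compound against Hdac1 cKO the 1 call became 2 with a pseudocount of 0.1 and 3 at any fold change. In nuclei 0 became 1 at any fold change. For Hdac1 loss over both backgrounds 0 became 2 with a pseudocount of 0.1, 1 with quantile normalization and 4 at any fold change, and for 5XFAD over both backgrounds 0 became 1 with a pseudocount of 0.1 and 4 at any fold change. The interaction count of 1 became 2 at any fold change. Apart from the fold threshold itself, the cause of these shifts was not tested. With 1 mouse left out the counts ran from 0 to 2 for Hdac1 cKO against control, 1 to 3 for 5XFAD, 2 to 2 for compound against control, 1 to 2 for compound against 5XFAD, 1 to 2 for compound against Hdac1 cKO, 0 to 1 in nuclei, 0 to 2 for Hdac1 loss, 0 to 1 for 5XFAD over both backgrounds and 1 to 3 for the interaction. A further member was called against control in 5XFAD without control 1, control 2 or 5XFAD 1, 3 or 5 (Parp2 or Apex1), in compound against 5XFAD without compound 1 (Apex1), in compound against Hdac1 cKO without Hdac1 cKO 1 or 3 or compound 2 or 4 (H2afx), in nuclei without Hdac1 cKO 4 (Fen1) and for 5XFAD over both backgrounds without 5XFAD 1 (Nhej1). For Hdac1 loss over both backgrounds it was Nhej1 or Apex1, without control 3 or 4, Hdac1 cKO 3, 4 or 5, 5XFAD 3, 4 or 6 or compound 1, and for the interaction Nbn, Nhej1 or Parp2, without control 2, Hdac1 cKO 1 or 2, 5XFAD 3 or 6 or compound 4. The p of Lig4 in 5XFAD missed the threshold without control 2, and that of Rnf8 in nuclei without control 1 or 4 or Hdac1 cKO 3 or 4. Replicate numbers did not pair the mice: the deviations of same-numbered mice correlated at -0.11 to 0.094 in 30 pairs of groups. With the replicate block, the counts were 1 for Hdac1 cKO (the Xrcc4 call was lost), 2 for 5XFAD and 1 for Hdac1 loss over both backgrounds. Nhej1 rests on an estimated 2.62 to 40.6 fragments per hippocampal library and Apex1 on 3.09 to 35.1.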
